A study of Mus musculus with 2 samples.

Results

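The Rif1 locus on mouse chromosome 2 was described here through every POU5F1 peak whose centre lay within 50 kb of an annotated Rif1 transcript start. The gene was chosen by the measured height of its promoter peak in these same lists, so its peak heights, ranks and peak numbers are a description and no test was made on them. Under this rule Rif1 had 3 of 5515 peaks in the mm9 list of the whole series, 2 of 1330 in the mm9 list of replicate 1 and 3 of 6324 in that of replicate 2. On mm10 it had 3 of 3994 peaks in the optimal list and 3 of 2676 in the conservative list.

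RIF1 is a large nuclear protein that was first found at telomeres in budding yeast. In mammalian cells it is recruited by 53BP1 to broken DNA ends and limits their resection, and it brings protein phosphatase 1 to chromatin, where it opposes the kinases that fire replication origins and so sets the time at which domains replicate. In mouse embryonic stem cells the gene is known to be highly expressed, and the protein has been linked to telomere length and to silencing through methylation of histone H3 lysine 9. POU5F1, also called OCT4, is a POU-domain transcription factor that keeps embryonic stem cells pluripotent. It binds the octamer ATGCAAAT, often next to a SOX2 site in what is called the composite SOX-POU element.

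POU5F1 occupancy was measured by chromatin immunoprecipitation and sequencing (ChIP-seq) in 1 group of 2 biological replicates of E14TG2a.4, with no treatment named in the labels. This is a male mouse embryonic stem cell line of strain 129/Ola, and the labels give both replicates the same donor. The control experiment was not analysed here, and without expression values the identity of the cells was not checked against markers. The lists hold 1 value per peak with no error, the read depth is unknown, and the signal is a value deposited by the authors whose scale was not stated. Signals are therefore compared within a list and not between lists, and replicate agreement is shown by giving both replicates.

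The 3 sites are called upstream, promoter and internal by their place relative to the first annotated Rif1 start (mm9, GENCODE M1, chromosome 2, position 51928357, plus strand), from which all distances are counted. The sequences of the promoter and internal sites are shown because the search for POU5F1 motifs below turns on them. They are reference sequence of the NCBIM37 (mm9) genome, plus strand, at chr2:51927632-51927931 (the central 300 bases of the promoter peak) and chr2:51945659-51945958 (the central 300 bases of the internal peak). Capitals mark matches, on either strand, to the octamer with up to 1 mismatch and to the composite element with up to 4 mismatches. The reference is of another mouse strain than the cells.
promoter: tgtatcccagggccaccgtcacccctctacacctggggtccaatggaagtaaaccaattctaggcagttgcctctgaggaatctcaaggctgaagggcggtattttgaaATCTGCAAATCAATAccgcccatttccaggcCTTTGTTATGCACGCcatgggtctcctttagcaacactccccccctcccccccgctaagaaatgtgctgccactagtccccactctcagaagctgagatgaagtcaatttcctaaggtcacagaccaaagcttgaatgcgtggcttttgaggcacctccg
internal: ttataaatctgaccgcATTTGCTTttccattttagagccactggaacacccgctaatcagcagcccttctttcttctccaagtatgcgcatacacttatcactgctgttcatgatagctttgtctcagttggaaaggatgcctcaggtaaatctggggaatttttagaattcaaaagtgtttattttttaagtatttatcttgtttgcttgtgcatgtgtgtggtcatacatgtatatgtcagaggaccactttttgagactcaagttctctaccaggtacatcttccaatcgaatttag

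The promoter site was the strong site of the locus in every list. In the mm9 list of the whole series it covered 604 bp (51927480 to 51928083), was centred 576 bp before the first start and had a signal of 22.91, which ranked 18 of 5515. In replicate 1 its signal was 19.91, rank 14 of 1330, and in replicate 2 it was 42.32, rank 16 of 6324. The ranks by signal were thus close in the 2 replicates, of which replicate 2 holds more than 4 times as many peaks. Because the gene was chosen by the height of this peak in these lists, the closeness is a description only. By the deposited −log10 p the site ranked 17 in the whole-series list with 159.61, 11 in replicate 1 with 83.793 and 21 in replicate 2 with 177.197.

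The same site led the locus on mm10. In the optimal list it covered 272 bp (52072116 to 52072387), its summit lay 546 bp before the Rif1 start of that build (RefSeq, position 52072815), and its signal of 283.5 ranked 12 of 3994. It ranked 12 in the conservative list as well. In the relaxed lists, which hold 300000 entries each and include background, it ranked 10 in replicate 1 with a signal of 114.8 and 20 in replicate 2 with 166.0. Only 10 of the 3994 optimal peaks, Rif1 counted, were at least as high as it in both replicates (0.25%). The summits of the 2 replicates were 3 bp apart at this site, a difference as small as at 294 of 3704 optimal peaks that could be compared (7.94%), against a median difference of 31 bp over all of them.

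The internal site lay within the gene body. In the mm9 whole-series list it covered 355 bp (51945631 to 51945985), was centred 17451 bp after the first start and had a signal of 7.64, rank 978. In replicate 1 its signal was 6.84, rank 665 of 1330, with a −log10 p of 5.204 and a q-value of 0.1839. In replicate 2 its signal was 14.36, rank 650 of 6324, with a −log10 p of 24.718. The site was thus in the upper ranks of replicate 2 and in the middle of the shorter list of replicate 1, where its deposited −log10 p ranked 1252 of 1330. Its peak contains the whole of exon 13 (51945694 to 51945804, 111 bp), a coding exon of the 3 protein-coding transcripts. The centre falls 114 bp after the first base of that exon, in the intron that follows, and 715 bp after the start of an annotated non-coding transcript that begins inside the gene. Of all whole-series peaks, 232 of 5515 overlapped a coding exon (4.21%).

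The upstream site was the weakest of the 3 in the mm9 whole-series, mm9 replicate 2 and mm10 optimal lists, and was in the mm9 list of replicate 2 but not in that of replicate 1. In the whole-series list it covered 294 bp (51926751 to 51927044), was centred 1460 bp before the first start and had a signal of 4.41, rank 4384 of 5515, with a −log10 p of 7.729. In replicate 2 its signal was 6.8, rank 4994 of 6324, with a −log10 p of 10.653. On mm10 the site was in both replicates: its signal in the relaxed lists was 17.2, rank 1122, in replicate 1 and 32.6, rank 1230, in replicate 2. It also passed into the optimal list with a signal of 51.6, rank 1049 of 3994, and into the conservative list at rank 1022. The site was thus missing from replicate 1 in its mm9 list and present in its relaxed mm10 list.

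**Figure D1:**
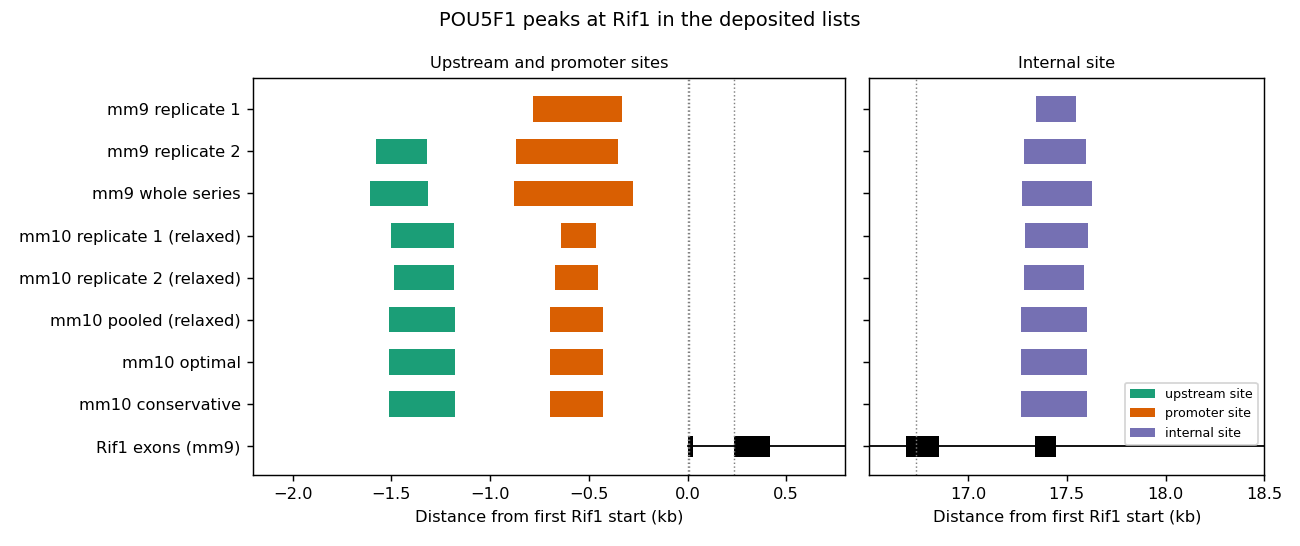
POU5F1 peaks at Rif1 in each deposited list, as bars from the first to the last base of the peak. The horizontal axis is the distance in kb from the first annotated start of Rif1 on the same build, black boxes are Rif1 exons on mm9 and dotted lines are annotated starts on mm9. The promoter and internal sites are in all 8 lists, while the upstream site is missing from the mm9 list of replicate 1.

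The positions of the sites were close across lists. Each replicate peak on mm9 lay wholly inside the whole-series peak. At the promoter site the replicate 1 peak covered 74.7% of the whole-series peak and the replicate 2 peak 85.8%, with centres 19 bp after and 35 bp before its centre. At the internal site the shares were 58.3% for replicate 1 and 89.3% for replicate 2, with centres 5 bp and 11 bp before the whole-series centre. Of the 3 Rif1 peaks of the whole-series list, 2 were in both replicate lists, and over the whole list 1209 of 5515 peaks were (21.9%). Counted from each build's own first start, the internal centre lay at 17451 bp on mm9 and 17433 bp on mm10, and the promoter centre 576 bp and 564 bp before the start. The upstream centre lay 1460 bp before the start on mm9 and 1344 bp before it on mm10, the largest offset of the 3 between the builds' lists.

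**Figure D2:**
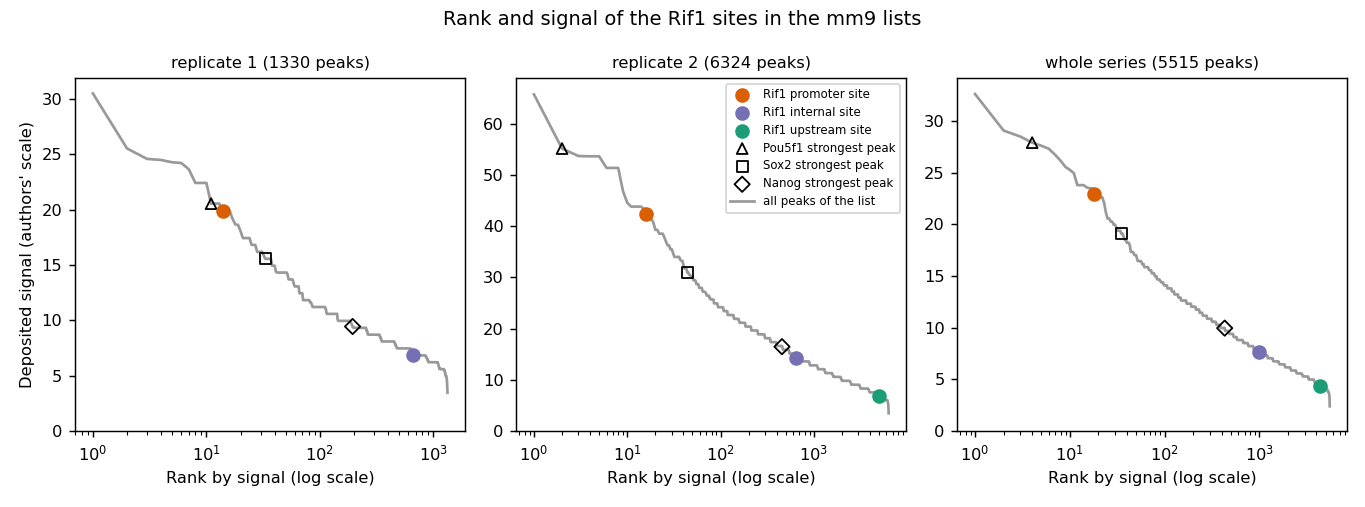
Deposited signal against rank for every peak of the 3 mm9 lists (grey line, rank on a log scale), with the Rif1 sites as filled circles and the strongest peak within 50 kb of Pou5f1, Sox2 and Nanog as open symbols. The Rif1 promoter site lies between the strongest peaks at Pou5f1 and Sox2 in each list, and the internal and upstream sites lie below Nanog.

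For scale, the promoter peak of Rif1 was set beside the strongest peak within 50 kb of genes that POU5F1 is known to bind. The strongest peak at Pou5f1 itself ranked 4 in the whole-series list, 11 in replicate 1 and 2 in replicate 2. The strongest peak at Sox2, which encodes the partner of POU5F1 at composite elements, ranked 35, 33 and 44 in the same order of lists. That at Nanog, a homeodomain pluripotency factor, ranked 430, 194 and 455. The Rif1 site thus stood below Pou5f1 and above Sox2 and Nanog in all 3 lists.

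The strength of the weaker sites was also read as a share of the promoter site in the same list. The internal site had 33.35% of the promoter signal in the mm9 whole-series list, 34.35% in replicate 1 and 33.93% in replicate 2. On mm10 it had 20.68% in the optimal list, 13.2% in replicate 1 and 28.74% in replicate 2. The near equality of the mm9 replicates was therefore not seen on mm10, where the share in replicate 2 was more than 2 times that in replicate 1. The upstream site had 19.25% of the promoter signal in the mm9 whole-series list and 16.07% in replicate 2. On mm10 it had 18.2% in the optimal list, 14.98% in replicate 1 and 19.64% in replicate 2. The order of the weaker sites differed between the mm10 replicates: the upstream site was the higher in replicate 1 and the internal site in replicate 2. Besides its own alignment, the mm10 list of replicate 1 drew on 2 files that are not described and that of replicate 2 on 1, and their part in the difference was not tested.

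**Figure D3:**
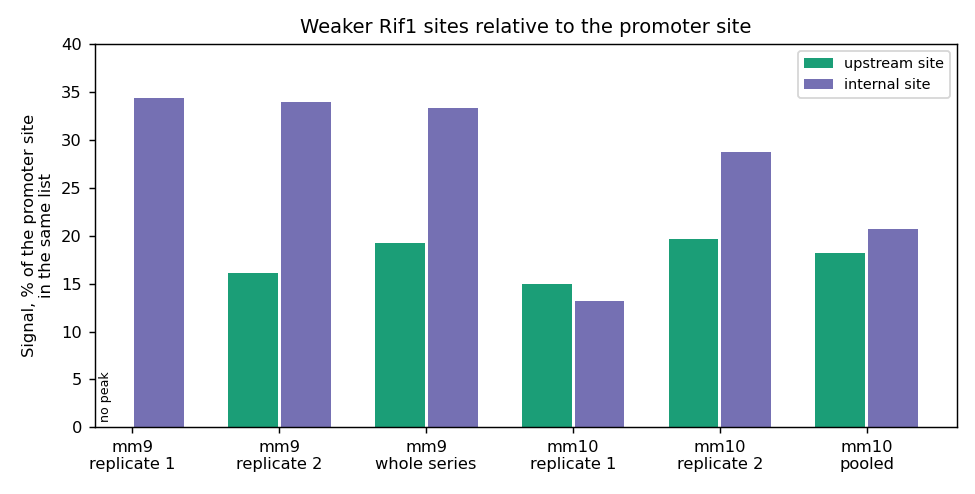
Signal of the upstream and internal Rif1 sites as a percentage of the promoter site in the same list, for the 3 mm9 lists and the 2 relaxed replicate lists and the pooled list on mm10. The internal bars stand between 33.35% and 34.35% in the mm9 lists, whereas on mm10 they run between 13.2% and 28.74%, and the upstream site has no bar in mm9 replicate 1.

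No further site of like height was seen around Rif1. The relaxed list of replicate 1 held 15 entries within 50 kb, of which 12 did not overlap the 3 optimal peaks. The highest of these had a signal of 9.27 and ranked 33888, against 15.2 for the lowest of the 3 Rif1 sites. The relaxed list of replicate 2 held 22 entries, of which 19 did not overlap the optimal peaks. The highest of these had a signal of 10.8 and ranked 15988, against 32.6 for the lowest of the Rif1 sites. The best of the remaining entries lay at different places in the replicates, 44388 bp before the start in replicate 1 and 13048 bp before it in replicate 2.

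The next peaks beyond the 3 sites lay outside the 50 kb window. In the mm9 whole-series list the next peak upstream was 317339 bp away and the next downstream 223803 bp away. In the mm10 optimal list the gaps were 1032252 bp and 223851 bp. The mm9 list of replicate 2 had a closer upstream peak, just outside the 50 kb window. It lay 59.32 kb before the first Rif1 start (51868858 to 51869214), with a signal of 6.8, rank 4994, tied with that of the upstream Rif1 site inside the window. The −log10 p of the outer peak was 8.142, against 10.653 for the upstream Rif1 site in the same list. The outer peak was not in the mm9 list of replicate 1 or of the whole series.

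The spacing of the upstream and promoter sites was set beside that of all peaks. Their centres were 884 bp apart in the mm9 whole-series list, 839 bp in replicate 2 and 780 bp in the mm10 optimal list. In the whole-series list 106 of 5515 peaks had another peak at most that near (1.92%), in replicate 2 it was 195 of 6324 (3.08%), and in the optimal list 353 of 3994 (8.84%). Among the 455 whole-series peaks centred within 1 kb of a start of a protein-coding gene, 17 had a second peak within 884 bp (3.74%). By whole-series signal the Rif1 promoter peak ranked 4 among these 455 peaks, and 4 among the 109 of them that were in both replicate lists. Among those of the 455 found in the list of replicate 1 it ranked 5 by the signal there. Among those found in the list of replicate 2 it ranked 3 by the signal there.

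The number of peaks at Rif1 was read against all 22238 protein-coding genes. At least 1 peak within 50 kb was found for 6064 genes in the whole-series list (27.3%, exact 95% interval of 26.7% to 27.9%, counting error only). The interval treats genes as independent, but neighbouring genes can share a peak, and it does not cover the difference between lists. At least 1 peak was found for 8.15% of genes in replicate 1 and 30.1% in replicate 2. At least as many peaks as at Rif1 were found for 327 genes in the whole-series list (1.47%), 145 in replicate 1 (0.652%) and 454 in replicate 2 (2.04%). The most peaks of any gene numbered 9, 5 and 8 in these lists, against 3, 2 and 3 at Rif1. A peak within 1 kb of a start, as at Rif1, was found for 2.18% of genes in the whole-series list, 0.535% in replicate 1 and 2.46% in replicate 2. Rif1 has 8 distinct annotated starts over 39296 bp, which widens its window relative to genes with a single start. All 3 whole-series sites nevertheless lie within 50 kb of the first start alone. With only the most upstream start of each gene, the whole-series share with at least as many peaks was 1.14%, against 1.47%. The promoter site lies within 1 kb of the first start, and the internal site within 1 kb of a start inside the gene.

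The neighbours of Rif1 were counted in the same way. Tnfaip6, which encodes a secreted hyaluronan-binding protein, starts 34.8 kb from the first Rif1 start. Its 2 whole-series peaks within 50 kb were both Rif1 sites, and so were 2 of its 3 peaks in replicate 2. Neb, which encodes the giant muscle protein nebulin, had 1 peak in the whole-series list and 1 in replicate 2, none of them a Rif1 site. Nmi, which encodes an interactor of MYC and STAT proteins, had none in the whole-series list and 1 in replicate 2. Rbm43, which encodes a protein with an RNA recognition motif, and the pseudogene Gm13495 had none in any mm9 list. The start nearest to the Rif1 promoter peak among these genes was that of Tnfaip6, 34.3 kb away.

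The 3 sites were searched for the motifs that POU5F1 is known to bind. The composite element was not found with up to 2 mismatches in any of them. In windows of the width of the promoter site it was present at 10.1% of all whole-series peaks and in 0.308% of windows 2 kb away from them. In windows of the internal width it was present at 9.83% of peaks and in 0.181% of windows 2 kb away. The exact octamer was absent from the 3 sites too, against 16.0% of peaks and 3.83% of windows 2 kb away at the promoter width. ATGCAT written 2 times in a row, the palindromic MORE element that POU factors bind as dimers, was likewise absent, against 0.308% of peaks and 0.0% of windows 2 kb away. Both strands were searched for every motif, and the composite element contains the octamer.

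Looser matches were present, and each of the 3 sites held at least 1 octamer with 1 mismatch. Such matches were common: at the promoter width 68.5% of peaks and 49.1% of windows 2 kb away held at least 1. At the upstream width the shares were 58.1% and 28.1%. The fewest mismatches to the composite element were 4 at the promoter site and 5 at the internal site. The promoter peak held 3 matches with 4 mismatches, and 66.9% of all peaks held at least 1 in a window of that width, against 30.0% of windows 2 kb away. The most central of them, CTTTGTTATGCACGC at 51927772 to 51927786 on the plus strand, was centred 2 bp before the peak centre. With positions counted from 1 at the 5′ end of the element, it differs by A2T in the SOX part and by A13C, A14G and T15C in the octamer part. A match with up to 4 mismatches within 10 bp of the centre was found at 845 of 5515 peaks (15.3%), against 57 points 2 kb away (1.03%). These shares also count matches with fewer than 4 mismatches. The allowance of 4 mismatches was chosen after seeing the data, and the 10 bp limit was not a planned setting. The shares are therefore a description and no support for this match. The match TATTGATTTGCAGAT at 51927741 to 51927755 on the minus strand, centred 33 bp before the peak centre, differs by C1T, T6A, A8T and A13G. It overlaps the octamer match CTGCAAAT, with 1 mismatch, on the plus strand. The third composite match of the promoter peak, CACTCTCAATCAAAT, lies 284 bp after the centre and outside the stretch printed above.

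The internal site held 2 copies of AAGCAAAT, an octamer with 1 mismatch, 153 bp and 130 bp before its centre on the minus strand. The one farther from the centre lies outside the stretch printed above, apart from its last base, and is not marked there. An octamer with up to 1 mismatch was found at 60.4% of peaks and in 32.8% of windows 2 kb away at that width.

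Motifs of other factors active in embryonic stem cells were searched in the same way. The KLF site (GGGTGTGG) was found once at the upstream site, against 3.75% of peaks and 2.28% of windows 2 kb away, and not at the promoter or internal site. The promoter site held 2 SP sites (GGGCGG), against 13.1% of peaks with at least 1 and 8.63% of windows 2 kb away. It also held 1 E-box (CACGTG), against 7.14% and 7.13%, and 3 NFY boxes (CCAAT), against 55.8% and 59.8%. The internal site held 1 NFY box. The SOX site CATTGT, the ESRRB site TCAAGGTCA and the STAT site TTCCNGGAA were in none of the 3 sites. The SOX site was present at 34.3% of peaks in windows of the promoter width, against 29.6% of windows 2 kb away, and overlaps the composite element.

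The base composition of the promoter and internal sites differed. GC content was 50.2% at the promoter site and 39.4% at the internal site, against medians of 45.7% and 45.9% over all peaks in windows of the same widths. The promoter peak held 14 CpG dinucleotides, against a median of 6 over all peaks. Of all 5515 peaks, 455 were centred within 1 kb of a protein-coding start. Neither composition nor motifs were compared with these promoter peaks alone. The internal peak held 4, against a median of 3.

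The promoter peaks most like that of Rif1 were found by the Euclidean distance of log10 rank over the 3 mm9 lists, among the whole-series peaks centred within 1 kb of a start of a protein-coding gene and present in both replicate lists. The nearest was that of Cnpy1, a gene of the canopy family, with ranks of 20 in the whole-series list, 21 in replicate 1 and 22 in replicate 2 and a distance of 0.229. It was followed by Abcg1, a sterol transporter, with ranks of 25, 28 and 20 and a distance of 0.347. Acp6, a lysophosphatidic acid phosphatase, had ranks of 27, 8 and 38, and Crlf2, a cytokine receptor, had 12, 5 and 19. Zfp384, a zinc finger factor, had 32, 21 and 41. Their peaks were centred between 346 bp before and 814 bp after the gene start, against 576 bp before it at Rif1.

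Genes of the processes in which RIF1 takes part were then examined as 4 lists of 74 genes in all, with Rif1 left out of them. Of the 74, 39 had a whole-series peak within 50 kb (52.7%), 12 a peak of replicate 1 (16.2%) and 41 a peak of replicate 2 (55.4%), against 27.3%, 8.15% and 30.1% of all protein-coding genes. The lists were not matched to all protein-coding genes in number of starts or in gene density. Many of these peaks lay nearer to a gene outside the lists. Apart from Ehmt1, no member had a whole-series peak above 11.75.

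Among 18 genes of DNA end protection, 10 had a whole-series peak (55.6%), 5 a peak of replicate 1 (27.8%) and 12 a peak of replicate 2 (66.7%). Trp53bp1, which encodes the 53BP1 protein that recruits RIF1, had a peak 395 bp before its start with signals of 10.87 in the whole-series list, 11.2 in replicate 1 and 18.14 in replicate 2. Paxip1, whose product PTIP also binds 53BP1, had a peak of 11.75 (10.58 in replicate 1 and 20.41 in replicate 2), but it lay 28046 bp away and nearer to Htr5a. H2afx, the histone variant phosphorylated at breaks, had a peak of 7.68, 1353 bp before its start, with signals of 6.49 in replicate 1 and 14.99 in replicate 2. The peak of 7.93 near Ppp1cc, a catalytic subunit of protein phosphatase 1, had signals of 6.22 in replicate 1 and 12.09 in replicate 2 and lay nearer to Hvcn1.

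Among 18 genes of H3K9 methylation and silencing, 12 had a whole-series peak (66.7%), 1 a peak of replicate 1 (5.56%) and 14 a peak of replicate 2 (77.8%). With 1 of 18 genes, the share in replicate 1 could not be told apart from the 8.15% of all protein-coding genes. In the other mm9 lists the share was above that of all protein-coding genes. Ehmt1, which encodes the H3K9 methyltransferase GLP, was the member with a peak in replicate 1. That peak lay 7186 bp after its start, with signals of 17.03 in the whole-series list, 10.58 in replicate 1 and 29.36 in replicate 2. The strongest peaks of the next members were 7.12 near Cbx1, which encodes the HP1 beta protein, 6.75 near Suv39h1, a methyltransferase of constitutive heterochromatin, and 6.35 near Trim28, the KAP1 corepressor. In replicate 2 these peaks had signals of 10.63, 11.34 and 11.08, and none was in replicate 1. Those of Cbx1 and Trim28 lay nearer to Snx11 and Zbtb45.

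Among 20 genes of replication licensing and firing, 10 had a whole-series peak, 2 a peak of replicate 1 and 9 a peak of replicate 2. Of all protein-coding genes, 27.3%, 8.15% and 30.1% had a peak in the same order of lists. With 2 of 20 genes, the share in replicate 1 could not be told apart from that of all protein-coding genes. In the other mm9 lists the share of the replication genes was above it. None of the 20 had a whole-series peak within 1 kb of a start, against 3 of 18 for DNA end protection, 2 of 18 for H3K9 methylation, 2 of 18 for telomeres and 2.18% of all protein-coding genes. With a window of 25 kb the count with a whole-series peak was 2 of 20, against 16.7% of all protein-coding genes. In a list of 20 genes, neither of these counts sets the replication genes apart from all protein-coding genes. Orc2, a subunit of the origin recognition complex, had a peak of 11.75 in the whole-series list, 2302 bp before its start, with signals of 8.09 in replicate 1 and 17.38 in replicate 2. The peaks near Recql4, a helicase of origin firing (9.4), Gins1, a subunit of the replicative helicase (7.93), and Dbf4, the activator of the CDC7 kinase that RIF1 opposes (6.46), lay nearer to Foxh1, Ninl and Slc25a40. The peak near Recql4 had signals of 7.47 in replicate 1 and 15.12 in replicate 2. Those near Gins1 and Dbf4 were not in replicate 1 and had signals of 15.87 and 12.85 in replicate 2.

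Among 18 genes of telomere protection and lengthening, 7 had a whole-series peak (38.9%), 4 a peak of replicate 1 (22.2%) and 6 a peak of replicate 2 (33.3%). The shares of all protein-coding genes were 27.3%, 8.15% and 30.1% in the same order. In replicate 2 the share of the list was thus near that of all protein-coding genes. Terf1, a shelterin subunit that binds telomeric repeats, had a peak of 9.98 in the whole-series list, 13868 bp before its start, with signals of 7.47 in replicate 1 and 19.65 in replicate 2. The peak of 9.98 near Wrap53, a telomerase assembly factor, lay nearer to Trp53, and that of 8.52 near Ctc1 (annotated as 1500010J02Rik), a subunit of a telomere replication complex, lay nearer to Tmem107. The peak near Wrap53 had signals of 6.84 in replicate 1 and 19.65 in replicate 2, and that near Ctc1 had 8.71 and 12.09. Rtel1, a telomere helicase, had a peak of 6.75, 3182 bp before its start, which had a signal of 6.05 in replicate 2 and was not in replicate 1.

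**Figure D4:**
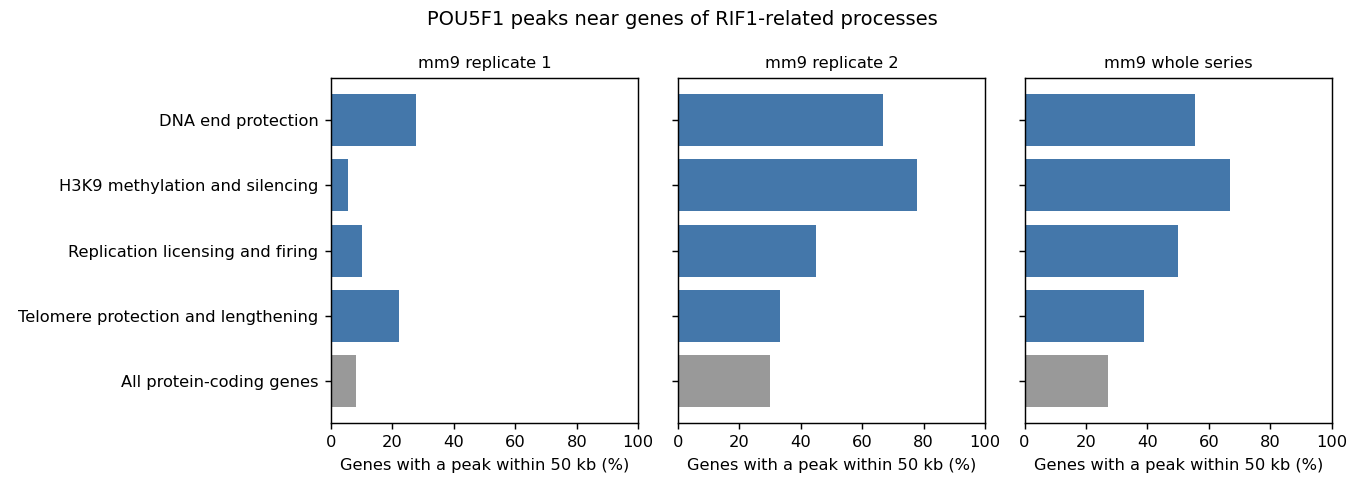
Share of genes with a POU5F1 peak centre within 50 kb of a transcript start, in percent, for 4 lists of genes from RIF1-related processes (blue) and all 22238 protein-coding genes (grey), in each mm9 list. The blue bars run between 38.9% and 66.7% in the whole-series list, against 27.3% for all genes. In replicate 1 they run between 5.56% (the H3K9 list, 1 of 18 genes) and 27.8%, against 8.15% for all genes. In replicate 2 they run between 33.3% (the telomere list) and 77.8% (the H3K9 list), against 30.1% for all genes.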

How the data were processed

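POU5F1 ChIP-seq peak lists of 2 biological replicates were used as the authors deposited them. Per the labels and file headers there is 1 group, so no comparison between conditions was made. The mm9 lists deposited by the authors give a signal, a −log10 p-value and a q-value per peak for replicate 1, replicate 2 and the whole series. On mm10 the authors deposited a signal and a −log10 q-value per entry, and the score of the deposited lists thresholded on the irreproducible discovery rate (IDR), which measures how far replicates agree, is 1000 at all 3 Rif1 sites. The aligner, the peak caller, the IDR threshold, the scale of the signal and how the mm9 whole-series list was combined are not given in the sources used here. No read counts were used, so depth is unknown and sets no interval here.

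Peaks were assigned to genes by the distance of their centre (mm9) from transcript starts of GENCODE M1, with RefSeq on GRCm38 for mm10, and coordinates were never converted between builds. Ranks are by signal within a list, highest first, and tied peaks share the best rank. Peaks were taken as shared at an overlap of at least 1 bp. Motifs were counted on both strands over the whole peak, and over windows of the same width on all whole-series peaks and 2 kb away. The motif and gene counting were tested on simulated data. Python 3.11.15, pandas 2.3.3, numpy 2.4.6, scipy 1.17.1, pysam 0.24.0, samtools 1.23.1 and matplotlib 3.10.9 were used.

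Named genes were Rif1, genes starting within 150 kb of it, up to 4 members of each list with the strongest peak within 50 kb, the 5 genes with the most similar promoter peak, and Pou5f1, Sox2 and Nanog for scale. Genes nearer to a named peak are given beside it. The locus, the gene lists and the rules were chosen with earlier results of these data known. No p-value was computed, since the locus was chosen from its peaks. The sequence of the upstream site and the letters and places of motif matches in it are not reported here. The RefSeq promoter table holds no entry for Rif1.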

Additional observations from a re-analysis of the deposited data

How the results depend on the processing

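The count of peaks at Rif1 stayed at 3 with windows of 25 kb and 100 kb, with any base of the peak in the window, and without replicate 1. It was 2 when a −log10 p of 10 or more was required and without replicate 2, since the upstream site was then lost. Throughout this section, leaving out a replicate means reading the deposited list of the other one, since no list was rebuilt. The promoter site then ranked between 14 and 16, against 18 on mm9, and between 10 and 20, against 12 on mm10. These are the ranks per replicate given above, and the mm9 lists differ in length.

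The share of genes with a peak, 27.3%, was 16.7% at 25 kb, 43.3% at 100 kb, 16.6% when a −log10 p of 10 or more was required and between 8.15% and 30.1% when a replicate was left out. The share with at least as many peaks as Rif1, 1.47%, was 0.508% at 25 kb, 4.61% at 100 kb and between 0.652% and 2.04% when a replicate was left out. It was 1.14% with only the most upstream start of each gene, which was not a planned setting. The share was 2.46% with the same requirement on −log10 p, a setting chosen after seeing the data, as was the allowance of 4 mismatches. With 4 mismatches 2 of the Rif1 peaks held a composite element, and with 1 mismatch 3 held an octamer, against 0 as reported for both. The number of the 74 list members near a peak, 39 (52.7%), was 12 (16.2%) without replicate 2 and 41 (55.4%) without replicate 1. The shares of all protein-coding genes were 27.3%, 8.15% and 30.1% in the same order. With windows of 25 kb and 100 kb the number was 26 (35.1%) and 46 (62.2%), against 16.7% and 43.3% of all protein-coding genes. At 25 kb the replication list had 2 members, against 10 as reported. The causes were not tested. No paired analysis was possible because there is a single group and no test.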
